A study of Homo sapiens with 2 samples.

Results

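ENC1 and its relatives of the BTB-kelch family were followed in a pair of C33-A lines. Also followed were 6 cullins, of which CUL3 is the one that BTB-kelch proteins bind. The members were taken by name, as probe sets that the platform annotation pairs with exactly 1 symbol, where the symbol is ENC1, KLHL, KBTBD or KLHDC with a digit after it, or CUL1, CUL2, CUL3, CUL4A, CUL4B or CUL5. This gave 143 of 54675 probe sets and 59 of 19775 genes: ENC1, 34 KLHL genes, 8 KBTBD genes, 10 KLHDC genes and 6 cullins. The family was chosen by the low intensity of ENC1 in CA9 cells, seen on these same arrays, so the ENC1 difference is given as a description and supports nothing here. The other members were taken by symbol and not by a measured value, but with earlier results of this pair of arrays known.

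C33-A is an established human cervical carcinoma line that is free of papillomavirus. One derivative, here called CA9 cells, was stably transfected with the full-length human CA9 cDNA in the plasmid pcDNA3.0, whose insert is driven by a viral promoter, and its control, here called vector cells, received the plasmid without insert. CA9 encodes carbonic anhydrase IX, an enzyme of the cell surface that is induced by hypoxia. Both lines were kept in RPMI medium with 10% serum and RNA was taken on day 4 after seeding, per the labels' protocols. Each line gave 1 array, and the labels do not state whether a line is 1 clone or a pool.

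Kelch proteins fold their repeats into a propeller that binds other proteins. In the BTB-kelch proteins an N-terminal BTB domain binds the scaffold CUL3, so that the propeller presents a substrate to a cullin-RING ubiquitin ligase. The ligase is switched on when the ubiquitin-like protein NEDD8 is attached to the cullin and switched off when the COP9 signalosome removes it. ENC1, ectoderm-neural cortex protein, belongs to this family, associates with actin and is best known from the developing nervous system. The arrays measure mRNA, whereas these ligases act on proteins.

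Values are intensities on a linear scale, and a difference is the log2 intensity of CA9 cells minus that of vector cells. A gene is represented by its brightest probe set. It was taken as measurable if the higher of its 2 values lay above a floor of 40.8, the median intensity over non-control probe sets of both arrays. Of the 59 genes, 47 were measurable. With 1 array per line no test can be made, and no value shows how far repeat cultures of the same line would differ. As a guide to technical scatter, the differences of probe sets of the same gene, over 6186 genes, had a pooled SD of 0.31, although probe sets share the RNA and the array and are not replicates. In bulk RNA, fewer cells that express a gene and less RNA per cell cannot be told apart. Of 6 markers listed for an epithelial cervical carcinoma line, CDH1 and EPCAM, which mark epithelial cell contacts, were at or below the floor on both arrays. KRT8, KRT18, KRT19 and the cell cycle inhibitor CDKN2A were measurable with no 2-fold difference. Of 8 markers of other cell types 6 were measurable, and none was 2-fold apart. COL1A1 had 164 in CA9 cells and 170 in vector cells, and PAX8 had 143 in CA9 cells and 167 in vector cells. Both were brighter than KRT8, at 101 in CA9 cells and 68.3 in vector cells, and the remaining markers of other cell types were dimmer than KRT8. These lists therefore do not separate cell types here. PTPRC, of leukocytes, was at least 1.42-fold lower and CD14, of monocytes, at least 1.40-fold higher, each with 1 array below the floor.

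ENC1 was the only member at least 2-fold apart in its representing probe set. Its intensity was 120 in CA9 cells and 592 in vector cells, which is 4.93-fold lower, a difference of -2.30. The second ENC1 probe set gave 30.1 in CA9 cells, which is below the floor, and 176 in vector cells, so that it was at least 4.31-fold lower. Both probe sets thus placed ENC1 low in CA9 cells. Among the 13823 measurable genes 4 had a lower difference than ENC1. At least 2-fold lower in CA9 cells was 1 of 47 members, against 0.694% of all measurable genes, and since that member is the gene that led to the choice of the family, nothing is read from this count. No member was at least 2-fold higher, against 0.651% of all measurable genes. No member lies just inside 2-fold, since ENC1 is far past it, and KLHL17, 1.94-fold higher, is the nearest outside.

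**Figure D1:**
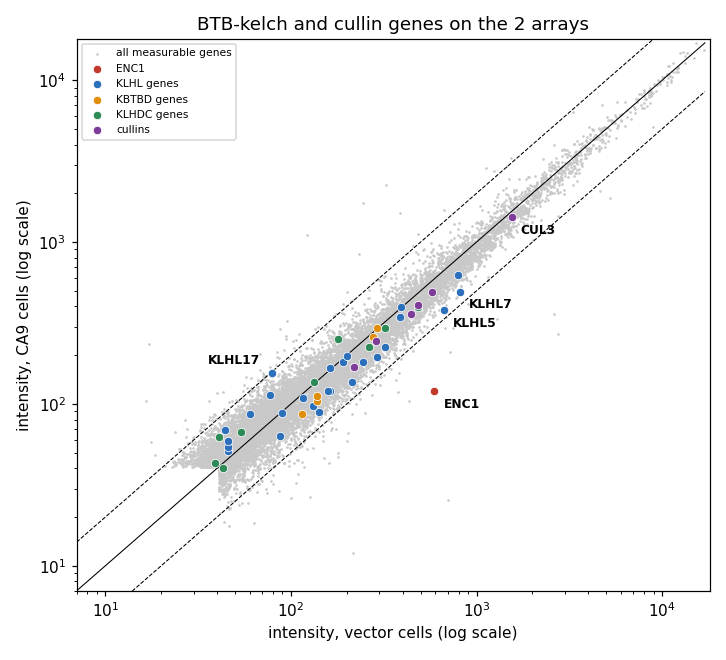
Intensity of each measurable gene in CA9 cells (vertical) against vector cells (horizontal), both on log scales, with members coloured by family, all measurable genes in grey, a solid line of equality and dashed lines at 2-fold. ENC1 lies alone beneath the lower dashed line at 120 in CA9 cells against 592 in vector cells, and the other 46 members lie between the dashed lines.

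None of the other members reached 2-fold. The median difference of the 47 measurable members was -0.16, against -0.03 over all measurable genes, and without ENC1 it was -0.14. Of the 47, 32 lay below 0, which is 68.1%, against 53.0% of all measurable genes. Without ENC1, which led to the choice of the family, 31 of 46 (67.4%) lay below 0. At 1.5-fold, 5 members were lower and 3 were higher in CA9 cells. These are 10.6% and 6.38% of the members, against 4.74% and 5.29% of all measurable genes. Without ENC1, 4 of 46 (8.70%) were lower and 3 (6.52%) were higher. Within 1 SD between probe sets of 0 lay 23 members, whereas 16 were lower and 8 were higher by more than that SD. These are 48.9%, 34% and 17.0% of the members, against 64.6%, 18.4% and 17.0% of all measurable genes. ENC1 is among the 16.

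**Figure D2:**
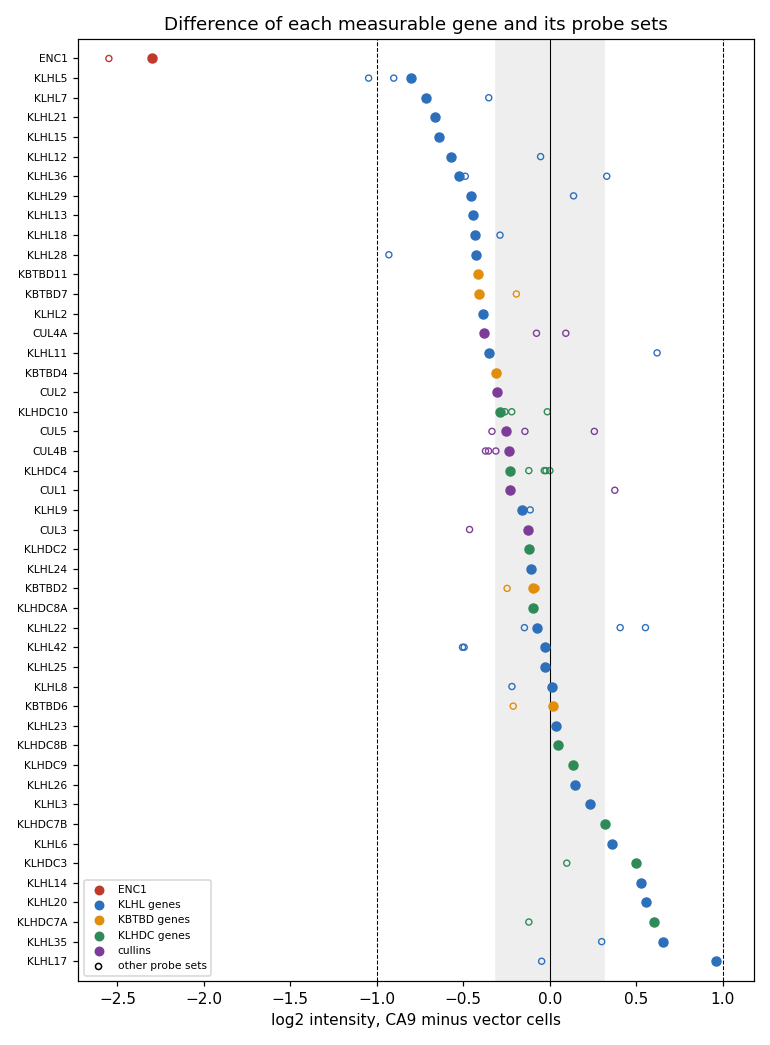
Log2 difference, CA9 minus vector cells, of the 47 measurable members (filled points, brightest probe set) and of their other probe sets above the floor (open points). The grey band is 1 SD between probe sets (0.31) on each side of 0 and the dashed lines mark 2-fold. ENC1 is far to the left at -2.30, KLHL17 farthest to the right at 0.96, and 32 filled points lie left of 0.

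Among the KLHL genes, the BTB-kelch substrate receptors, 26 of 34 were measurable, with a median difference of -0.13, and 17 were below 0 and 9 above it. The 17 are 65.4% of the 26, against 53.0% of all measurable genes. KLHL5 had an intensity of 380 in CA9 cells and 664 in vector cells, 1.74-fold lower. Its other probe sets above the floor gave 136 in CA9 cells against 255 in vector cells, and 87.0 in CA9 cells against 180 in vector cells, a 2.07-fold lower value. All 3 KLHL5 probe sets were therefore lower in CA9 cells, with a mean difference of -0.92 ± 0.12 (SD over 3 probe sets). KLHL7, a CUL3 receptor mutated in retinitis pigmentosa, had 495 in CA9 cells and 813 in vector cells, 1.64-fold lower. Its other probe sets had differences of -0.71 and -0.35, so all 3 were on the same side and their mean was -0.59 ± 0.21 (SD over 3 probe sets).

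KLHL21, which with CUL3 acts on the mitotic kinase Aurora B, had 89.2 in CA9 cells and 141 in vector cells, 1.58-fold lower. KLHL15, the receptor for a regulatory subunit of the phosphatase PP2A encoded by PPP2R5B, had 136 in CA9 cells and 213 in vector cells, 1.56-fold lower. KLHL21 and KLHL15 have 1 probe set each, so no second probe set bears on either value. KLHL28 had 97.4 in CA9 cells and 131 in vector cells, and its second probe set gave 27.1, below the floor, in CA9 cells against 51.6 in vector cells, at least 1.26-fold lower. KLHL12, which modifies the coat protein SEC31A for the export of large cargo, had 196 in CA9 cells and 292 in vector cells. Its difference was -0.57 in that probe set and -0.05 in the other, farther apart than the SD between probe sets. KLHL36 had 224 in CA9 cells and 322 in vector cells, with other probe sets at -0.49 and 0.33. KLHL18, which acts on the kinase Aurora A, had differences of -0.43 and -0.29.

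The 5 members at least 1.5-fold lower include 3 whose promoter entry begins at the outermost start of the gene, and these are shown with that of KLHL17, the member farthest to the other side, to set the start regions of genes that lie low together beside each other. Each run is the 250 bases before the start, 5′ to 3′ on the strand of the gene, from RefSeq on GRCh38.p14, with CpG dinucleotides in capitals. The regions are chr7:23105535-23105784 on the plus strand for KLHL7, chr1:6602870-6603119 on the minus strand for KLHL21, chrX:24027187-24027436 on the minus strand for KLHL15 and chr1:960334-960583 on the plus strand for KLHL17.
KLHL7: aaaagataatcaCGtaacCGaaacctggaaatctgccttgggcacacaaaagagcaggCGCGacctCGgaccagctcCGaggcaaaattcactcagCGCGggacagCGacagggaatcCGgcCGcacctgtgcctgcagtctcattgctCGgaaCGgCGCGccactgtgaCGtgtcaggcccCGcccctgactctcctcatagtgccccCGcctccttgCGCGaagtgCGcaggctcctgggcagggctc
KLHL21: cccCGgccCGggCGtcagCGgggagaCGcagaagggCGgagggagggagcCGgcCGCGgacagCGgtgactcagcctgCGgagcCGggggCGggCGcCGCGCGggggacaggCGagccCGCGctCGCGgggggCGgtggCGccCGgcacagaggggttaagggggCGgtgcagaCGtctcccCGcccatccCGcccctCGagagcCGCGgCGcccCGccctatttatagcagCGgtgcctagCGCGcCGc
KLHL15: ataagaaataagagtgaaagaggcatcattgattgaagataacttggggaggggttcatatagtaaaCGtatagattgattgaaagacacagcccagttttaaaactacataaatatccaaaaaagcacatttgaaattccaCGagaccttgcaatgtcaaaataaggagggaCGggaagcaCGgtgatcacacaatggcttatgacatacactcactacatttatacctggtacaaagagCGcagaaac
KLHL17: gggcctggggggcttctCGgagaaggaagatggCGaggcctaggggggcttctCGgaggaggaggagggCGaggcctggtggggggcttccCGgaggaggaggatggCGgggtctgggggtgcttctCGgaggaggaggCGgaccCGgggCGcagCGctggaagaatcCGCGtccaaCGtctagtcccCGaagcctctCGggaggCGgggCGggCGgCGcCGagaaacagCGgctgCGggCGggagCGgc

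The 3 promoters of lower genes differed in CpG content. KLHL21 held 38 CpG in 79.2% GC, KLHL7 held 21 in 62.4% GC and KLHL15 held 5 in 38% GC, while KLHL17, on the higher side, held 25 in 73.2% GC. The median over 27305 RefSeq promoters, 1 per gene, was 10 CpG. This set, also used for the motif shares below, was not limited to protein-coding genes. Promoters were matched for 49 of the 59 members. On either strand, GGGCGG, the core bound by Sp1, occurred in 25 of the 49 (51.0%) and in 42.2% of all promoters, and KLHL7, KLHL21 and KLHL17 hold it. CCAAT occurred in 11 (22.4%) against 33% of all, and TATAAA in 3 (6.12%) against 11.2% of all, among them KLHL21 and KLHL15. These motifs do not overlap in sequence, and a match describes the letters only.

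KLHL17, known in rat as the neuronal actin-binding protein actinfilin, was the member farthest above 0. Its brightest probe set gave 154 in CA9 cells and 79.3 in vector cells, but the second gave 72.2 in CA9 cells and 74.6 in vector cells. The probe sets of KLHL17 therefore disagree, at 0.96 and -0.05. KLHL35 had 69.0 in CA9 cells and 43.9 in vector cells, 1.57-fold higher, and its second probe set gave 42.4 in CA9 cells and 34.4, below the floor, in vector cells. KLHL20, the receptor for the kinase DAPK1 and for PML, had 113 in CA9 cells and 77.3 in vector cells, a difference of 0.55, and no other KLHL20 probe set was above the floor. KLHL14, a partner of torsin A, had 86.6 in CA9 cells and 60.2 in vector cells. KLHL6, which is known from germinal-centre B cells, had 58.7 in CA9 cells and 45.8 in vector cells.

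In KLHL11 the sign depended on the probe set. The brighter one gave 623 in CA9 cells and 794 in vector cells, and the dimmer one 58.7 in CA9 cells and 38.2, below the floor, in vector cells. KLHL22, which releases the mitotic kinase PLK1 from kinetochores, had 4 probe sets above the floor, with differences of -0.08, -0.15 and 0.41 in 3 of them. The other was at least 1.3-fold higher, with vector cells below the floor, so 2 lay on each side. KLHL42, a receptor for the microtubule-severing enzyme katanin, was at -0.03 in its brightest probe set and at -0.50 in the second, and the third was at least 1.41-fold lower, with CA9 cells below the floor. KLHL29 had -0.45 and 0.14. Of the 28 members with 2 or more probe sets above the floor, 11 had probe sets on both sides of 0, against 46.6% of all such genes.

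**Figure D3:**
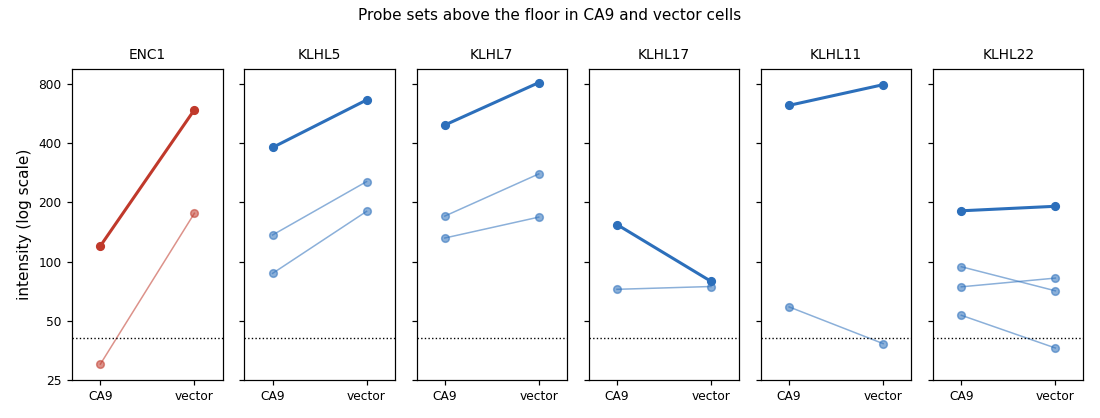
Intensity (log scale) of each probe set above the floor in CA9 cells (left) and vector cells (right) for 6 genes, with a thick line for the brightest probe set and a dotted line at the floor of 40.8. Lines of ENC1, KLHL5 and KLHL7 all run lower in CA9 cells, whereas those of KLHL17, KLHL11 and KLHL22 run both ways.

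The other measurable KLHL genes lay between -0.44 and 0.23. KLHL13, which acts with KLHL9 and CUL3 on Aurora B, had 119 in CA9 cells and 162 in vector cells, and KLHL9 had 346 in CA9 cells and 387 in vector cells. KLHL2, an actin-binding receptor for WNK kinases, was at -0.39 and its close relative KLHL3, mutated in a familial form of hypertension, at 0.23. KLHL25, also known as ENC2, had 87.9 in CA9 cells and 89.4 in vector cells, a difference of -0.03. KLHL24, which controls the stability of keratin 14, was at -0.11 in a probe set named _x_at, a kind that can detect related transcripts. KLHL8 at 0.01, KLHL23 at 0.04 and KLHL26 at 0.14 complete the measurable KLHL genes.

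The 8 KLHL genes that were not measurable include those known for other tissues. They are KLHL40, KLHL41 and KLHL31 of skeletal muscle, KLHL10 of spermatids, KLHL1 of neurons, and KLHL4, KLHL32 and KLHL34. The intensities of the 12 members below the floor, in their brightest probe sets, ran from 8.38 to 39.6 over both arrays, and no fold is given for them. A second KLHL31 probe set did pass the floor, at 49.4 in CA9 cells against 23.6, below the floor, in vector cells, and was at least 1.21-fold higher.

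Of the KBTBD genes, BTB-kelch proteins of a second naming series, 5 of 8 were measurable, with a median of -0.31. Below 0 were 4 of the 5, against 53.0% of all measurable genes. KBTBD11 had 86.2 in CA9 cells and 115 in vector cells, in its only probe set. KBTBD7 had 104 in CA9 cells and 138 in vector cells, a difference of -0.41, and its second probe set was at -0.19. KBTBD6, which works with KBTBD7 on the RAC activator TIAM1, had 293 in CA9 cells and 290 in vector cells. KBTBD4, mutated in medulloblastoma, had differences of -0.31 and -0.30 in its 2 probe sets. KBTBD2, the receptor for the regulatory PI3-kinase subunit PIK3R1, had -0.10, -0.25 and -0.08. Every difference of a KBTBD probe set lay below 0 except that of the brighter KBTBD6 probe set, 9 of 10 above the floor, and none reached 1.5-fold. These probe sets come from 5 genes and are not separate members. The share of all probe sets below 0 was not computed, so nothing is read from this count. KBTBD3, KBTBD8 and KBTBD12 were not measurable.

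The KLHDC genes encode kelch-repeat proteins without a BTB domain. Here 9 of 10 were measurable, with a median of 0.05, and 4 were below 0 and 5 above it. The 4 are 44.4% of the 9, against 53.0% of all measurable genes. KLHDC2, KLHDC3 and KLHDC10 are receptors of CUL2 ligases that read the C-terminal ends of proteins. KLHDC3 had 253 in CA9 cells and 179 in vector cells, a difference of 0.50, and its second probe set, named _x_at, was at 0.10. KLHDC10 had 394 in CA9 cells and 482 in vector cells, and its 4 probe sets above the floor ran from -0.29 to -0.01. KLHDC2 had 295 in CA9 cells and 320 in vector cells. These 3 receptors of the same cullin thus lay on both sides of 0.

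KLHDC7A had 62.4 in CA9 cells and 41.2 in vector cells, 1.52-fold higher, but its second probe set gave 38.5, below the floor, in CA9 cells and 41.9 in vector cells. KLHDC7B was at 0.32 and KLHDC8B at 0.05. KLHDC4 had 225 in CA9 cells and 264 in vector cells, and its 4 other probe sets above the floor lay between -0.12 and 0, with 1 listed at 61.1 in both lines. KLHDC8A and KLHDC9 each had 1 array below the floor, at 40.1 in CA9 cells and 42.9 in vector cells for KLHDC8A and at 43.0 in CA9 cells and 39.1 in vector cells for KLHDC9. KLHDC1, the receptor that pairs with CUL5, was not measurable.

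All 6 cullins of the naming rule, the scaffolds of the ligases, were measurable, and all 6 lay below 0 in their brightest probe sets by between 0.12 and 0.38 on the log2 scale. Over all measurable genes 53.0% lay below 0. At a higher floor, the 75th percentile, where all 6 cullins remained, the share over all genes was 62.4%. CUL3, the partner of the BTB-kelch proteins, had 1419 in CA9 cells and 1546 in vector cells, and its second probe set above the floor was at -0.46. CUL1, the scaffold of SCF ligases, had 490 in CA9 cells and 574 in vector cells, and CUL2, which serves VHL, had 357 in CA9 cells and 441 in vector cells. CUL4A and CUL4B are the partners of DDB1. CUL4A had 169 in CA9 cells and 219 in vector cells. A CUL4A probe set of similar brightness gave 182 in CA9 cells and 192 in vector cells, a difference of -0.08. CUL4B had 245 in CA9 cells and 289 in vector cells. CUL5, which serves SOCS-box proteins, had 407 in CA9 cells and 486 in vector cells.

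No cullin was 1.5-fold apart, against 4.74% of all measurable genes lower and 5.29% higher by that rule. Of the 16 cullin probe sets above the floor, 13 were below 0. The share of all probe sets below 0 was not computed, so nothing is read from this count. The 4 CUL4B probe sets were the most alike, with a mean of -0.32 ± 0.06 (SD over 4 probe sets). Of the 3 probe sets above 0, that of CUL1 was at 0.38, that of CUL4A at 0.09, and that of CUL5 at least 1.11-fold higher, with vector cells below the floor. Outside the naming rule, all 4 probe sets of CUL7 and both of CUL9, more distant cullins, were higher in CA9 cells. For 1 of the CUL7 probe sets the value lay at the floor in CA9 cells (40.8) and below it in vector cells (29.1). Their brightest probe sets gave 271 in CA9 cells and 222 in vector cells for CUL7, and 93.4 in CA9 cells and 76.6 in vector cells for CUL9. The common direction of the 6 held under each rescaling of the arrays, but not with each gene taken as the average of its probe sets, which left 5 of 6 below 0, nor without probe sets named _x_at or _s_at, which left 1 of 3 measurable cullins. Under the rescaling that removes a loess trend with intensity, the 6 lay between -0.28 for CUL4A and -0.05 for CUL3.

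Around these members stand the parts of the ligase and its substrates, as 6 lists with 71 genes, 63 of them measurable. In their representing probe sets none of the 63 was 2-fold apart, 4 were at least 1.5-fold lower and none was 1.5-fold higher, and 38 lay below 0. Other probe sets passed 2-fold in IPP (-1.17), DCUN1D4 (-1.01) and SPOP (1.25). The lower genes at 1.5-fold are 6.35% of the 63, against 4.74% of all measurable genes, and 5.29% of all measurable genes were 1.5-fold higher. Below 0 lay 60.3% of the 63, against 53.0% of all measurable genes. Among BTB-kelch proteins with other symbols, KEAP1, the receptor for the oxidative stress factor NFE2L2, had 369 in CA9 cells and 370 in vector cells. IPP was at -0.40, with other probe sets between -1.17 and -0.31, and IVNS1ABP was at -0.08. In the list of core subunits and adaptors, with 9 genes and a median of 0.05, the RING subunit RBX1 had 1138 in CA9 cells and 1512 in vector cells, a difference of -0.41. RHOBTB3 was at -0.48, with other probe sets between -0.21 and 0.56. The substrate adaptor SPOP had 382 in both lines, but its other probe sets lay between 0.20 and 1.25.

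The 12 measurable genes of NEDD8 attachment and cullin exchange had a median of -0.15, with 9 below 0, against 53.0% of all measurable genes. CAND2, a relative of the cullin exchange factor CAND1, was 1.67-fold lower at 110 in CA9 cells against 183 in vector cells, with a second probe set at -0.13. DCUN1D1, a co-factor of NEDD8 attachment, was at -0.49, with other probe sets between -0.57 and 0.04. Its relative DCUN1D4 was at -0.17 in its brightest probe set and at -1.01 in the second. The third was at least 1.51-fold lower, with CA9 cells below the floor. NEDD8 itself had 1641 in CA9 cells and 1648 in vector cells. The 9 COP9 signalosome subunits had a median of -0.09, with COPS8 at -0.38 and COPS7B at 0.38. Other COPS8 probe sets lay between -0.28 and -0.04, and COPS7B had a second probe set at -0.13. Of 7 measurable kelch proteins outside the BTB family, MKLN1 at -0.41 and the chromatin cofactor HCFC1 at 0.38 were farthest from 0, and the median was -0.01.

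Among 23 measurable substrates of BTB-kelch receptors, 12 were below 0 and 11 above it, with a median of -0.15. Of all measurable genes 53.0% lay below 0. NFE2L2, whose protein level ENC1 is reported to lower, had 575 in CA9 cells and 776 in vector cells, a difference of -0.43, with a second probe set at -0.07. SQSTM1, an autophagy receptor, had 308 in CA9 cells and 307 in vector cells. TIAM1 had 132 in CA9 cells and 253 in vector cells, 1.92-fold lower, but its second probe set was at 0.53. WNK3 had 42.8 in CA9 cells and 73.8 in vector cells, and DAPK1 had 159 in CA9 cells and 275 in vector cells, each 1.73-fold lower in its only probe set above the floor. TCOF1, a nucleolar substrate of KBTBD8, was farthest on the other side at 0.54, with other probe sets between -0.08 and 0.35.

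**Figure D4:**
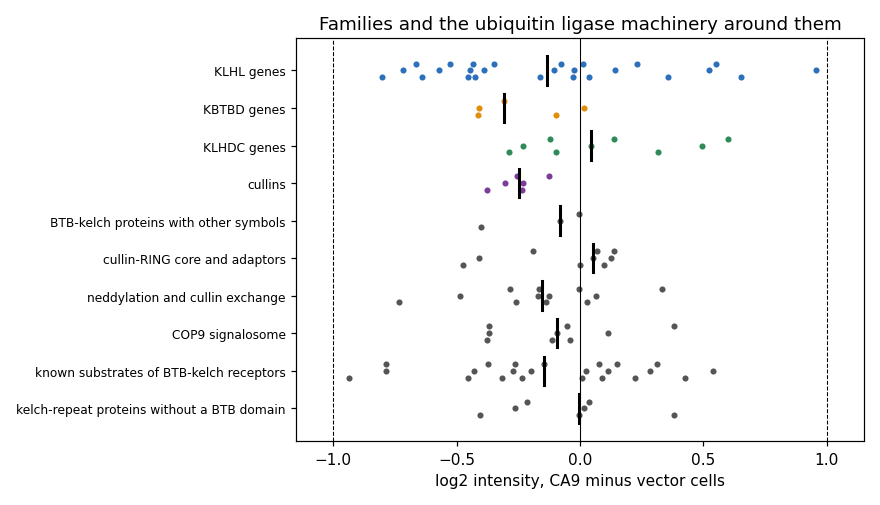
Log2 difference, CA9 minus vector cells, of each measurable gene in the KLHL, KBTBD and KLHDC families, the cullins and 6 lists of ligase machinery and substrates, with a black bar at each median and dashed lines at 2-fold. ENC1 is not drawn. Medians run from -0.31 for KBTBD genes to 0.05 for KLHDC genes and for core subunits, and no point passes a dashed line.

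Receptor and substrate mRNA can be set side by side, in the brightest probe sets unless stated. KLHL20 was at 0.55, and its substrates DAPK1 and PML were at -0.79 and 0.28, with other PML probe sets between -0.17 and 0.32. KLHL15 was at -0.64 and PPP2R5B at -0.37, with a second PPP2R5B probe set at 0.19. KLHL12 was at -0.57, with a second probe set at -0.05, and SEC31A was at 0.31, with a second SEC31A probe set at 0.35. KLHL7 was at -0.72 and its substrate TUT1 at 0.09. KBTBD7 was at -0.41, KBTBD6 at 0.02 and TIAM1 at -0.94, but a second TIAM1 probe set was at 0.53. KLHL25 was at -0.03 and its substrate EIF4EBP1 at -0.32. KLHL21, KLHL13 and KLHL9 were at -0.66, -0.44 and -0.16 and AURKB at -0.27, with a second AURKB probe set at 0.13. KLHL22 was at -0.08 and PLK1 at 0.15, and KLHL42 was at -0.03 and KATNA1 at -0.26. KBTBD2 was at -0.10 and PIK3R1 at -0.15, and KEAP1 was at -0.004 and NFE2L2 at -0.43. Not every pair is given, and no relation across these pairs was tested.

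The members lie on 21 chromosomes. Counting the protein-coding genes within 500 kb, ENC1 had 6 and KLHL17 had 40. The 32 members below 0 had a median of 11 such neighbours and the 15 above 0 a median of 12, and over all measurable genes these medians were 12 and 17. The Spearman correlation of difference with neighbour number was 0.17 over the 47 members and 0.24 over 12611 measurable genes, given as a description, since genes share the arrays and neighbouring genes are counted together. Of all single-gene probe sets above the floor 0.782% were at least 2-fold lower and 0.749% at least 2-fold higher in CA9 cells. Of the 93 member probe sets above the floor 3 were lower by this rule on their listed values, 2 of ENC1 and 1 of KLHL5, and 1 was higher, that of KLHL31.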

How the data were processed

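Gene expression was measured in CA9 cells and vector cells with 1 Affymetrix array each, from cRNA of 5 µg of total RNA per the labels' protocols. The deposited values are intensities, 1 per probe set and array. Per the submitters' processing notes the authors used RMA. The version, background setting and probe definitions are not given in the sources used here. That the scale is linear was read from the range, 6.79 to 17091 for CA9 cells and 7.19 to 16842 for vector cells.

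Intensities were put on log2 without a pseudocount. Genes were named by the platform annotation and updated through RefSeq identifiers (GRCh38.p14). Of the probe sets, 41091 have 1 symbol. CA9 itself was not analysed here, so the transgene does not check the labels. A fold written "at least" is set against the floor, because the lower array did not exceed it. The number of arrays limits the precision.

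Members, gene lists and the naming rule were chosen with earlier results of these data known. The rule named the cullins, ENC1, members 1.5-fold or more apart, members whose probe sets differ in sign with 1 of them 1.5-fold apart, and the 2 highest and 2 lowest others per family, and for each list those 1.5-fold apart or the 2 farthest from 0. All further measurable members are given too. Other list genes, such as NFE2L2 and SQSTM1, were named after their values were seen. Some genes of the lists were not analysed here. Where a gene had several promoter entries, the outermost was used. That entry need not begin at the outermost start of the gene, as for KLHL5. Only the printed promoters were required to do so, and the motif counts were not.

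Alternatives were averaging of probe sets, omission of _x_at and _s_at probe sets, 3 rescalings, no floor, a floor at the 75th percentile and a pseudocount of 16. The software was Python 3.11.15 with numpy 2.4.6, scipy 1.17.1, pandas 2.3.3, matplotlib 3.10.9 and statsmodels 0.14.6.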

Additional observations from a re-analysis of the deposited data

How the results depend on the processing

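ENC1 was the only member at least 2-fold lower, and no member was 2-fold higher, in each of the 8 alternatives. At listed values, those below the floor included, the ENC1 difference ran from -2.43 with averaged probe sets to -2.16 with a pseudocount of 16. The median difference of the measurable members ran from -0.27 at the higher floor of the 75th percentile, where 36 members and an all-gene median of -0.10 remained, to -0.10 without probe sets named _x_at or _s_at. The share of members below 0 ran from 61.7% after quantile normalization or loess removal, where 49.6% of all genes were below 0 in each, to 80.6% at the higher floor, against 62.4% of all genes. ENC1 is counted in these medians and shares. The counts of members and of cullins below 0 were added after the data were seen. All 6 cullins stayed below 0 under the 3 rescalings, without a floor, at the higher floor and with the pseudocount, whereas 5 did with averaged probe sets and 1 of 3 without _x_at and _s_at probe sets, an omission that takes the brightest probe set from every cullin but CUL5. Single members other than ENC1 moved by less than the SD between probe sets in 251 of 260 comparisons with an alternative, leaving out the changes of floor, which cannot move a single gene. Many of the 260 left little or no room to move, so the share does not measure robustness. Equal medians shift every member alike, and members with 1 probe set keep their value on averaging. Members whose brightest probe set is kept stay as they are without _x_at and _s_at probe sets. The 9 comparisons with a larger move were KLHL11 (0.14), KLHL17 (0.46), KLHL29 (0.05), KLHL35 (0.31), KLHL42 (-0.34), KLHDC7A (0.24) and CUL4A (-0.05) with averaged probe sets, and CUL1 (0.38) and CUL4A (0.09) without _x_at and _s_at probe sets. Members that fell below the floor have no comparison, so this list is incomplete. With averaged probe sets, which left 42 measurable, these were KLHL3, KLHL6, KLHL14, KLHL20, KLHL24 and KLHDC8A. Without _x_at and _s_at probe sets 37 members were measurable. No paired analysis was possible because each line has 1 array.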

Other observations

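Probe sets that the annotation pairs with a member and a further gene were left out of the comparison. Above the floor were 1 probe set of KLHL23 and a readthrough transcript, at 393 in CA9 cells and 463 in vector cells, and 1 of KBTBD4 and PTPMT1, at 121 in CA9 cells and 175 in vector cells. Their differences were -0.24 and -0.53.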
